A study of Drosophila melanogaster with 2 samples.

Results

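The cuticle protein genes of Drosophila melanogaster were examined for binding of Six4 tagged with green fluorescent protein (GFP) in embryos. They were taken as the protein-coding genes of the dm6 annotation whose symbol is Cpr, Lcp, Pcp, Ccp, Acp or Edg followed by a digit, or starts with Twdl. The rule matched 139 genes, and 17 Acp genes of the male accessory gland were left out, which gave 122 of 13945 protein-coding genes on 6 chromosome arms. By symbol these were 70 Cpr, 15 Lcp, 7 Ccp, 2 Acp, 3 Edg and 25 Twdl genes, and no Pcp gene followed by a digit was found.

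The measurement was chromatin immunoprecipitation followed by sequencing (ChIP-seq) of whole transgenic embryos of strain Six4-GFP, which carries Six4 fused at its C terminus to GFP. Embryos were 0 to 16 hours old and of both sexes, pooled, and the chromatin was recovered with an antibody to GFP, although 1 label field names Six4 as the antibody. The 2 samples, biological replicates 1 and 3, form 1 group, and both carry the tag, so no comparison between conditions was possible and no control library was analysed here. The labels do not name the promoter of the transgene. In whole embryos a site bound in few cells and a site bound weakly in many cells cannot be told apart.

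The insect cuticle is an extracellular layer of chitin fibres and proteins that the epidermis secretes at the apical surface, and the first larval cuticle is laid down late in embryogenesis. Most Cpr, Lcp, Ccp, Acp and Edg genes encode proteins with the Rebers and Riddiford consensus, a chitin-binding sequence, while the Twdl (Tweedle) genes encode another cuticle protein family that lacks it. Members of both families lie in tandem arrays along the chromosomes, and many are switched on in short bursts before a moult. Six4 is a homeodomain transcription factor best known in the fly embryo for its part in muscle and gonad development.

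A gene was counted as occupied when a peak summit lay in its body extended by 2 kb on both sides, called its window here. Summits came from the authors' set of 3974 peaks that passed the irreproducible discovery rate procedure (IDR), which tests whether peaks recur between replicates. The set was the 3974 strongest entries of the authors' list for both replicates pooled. Membership alone thus does not show that a given peak was strong in each replicate. The peak caller of the authors gave every peak a signal, and ranks count from the strongest peak of a list. The whole IDR set ran from a signal of 81.1 to 1741 with a median of 128. Of the 122 cuticle protein genes 7 were occupied, or 5.74% (exact 95% interval 2.34 to 11.5%). All 7 were Cpr genes, and they shared 5 summits, of which 3 had a cuticle gene as the owner of the nearest protein-coding transcription start site (TSS). Outside the windows, 3 further IDR summits had a cuticle gene as owner of the nearest TSS.

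The sequences at 5 of the 6 summits nearest to a cuticle gene TSS are shown first, and that of the sixth, at Cpr51A, is not shown. They are the DNA at Six4-GFP summits whose nearest TSS was that of a cuticle gene, 13933 bp away for Cpr92A. The Cpr92A and Cpr65Ec summits lay outside the windows. Summits in the windows of Cpr31A and Cpr73D were nearest to the TSSs of neighbours and are not shown. Each printed stretch runs 100 bp to either side of the summit on the plus strand of dm6, strongest first. Capitals mark 2 of the 8 words searched below, TATAAA and TAATTA, on either strand. The stretch named for Cpr92A lies at chr3R:19584922-19585122, in an intron of Dys, the dystrophin gene. That of Cpr76Ba lies at chr3L:19516635-19516835, between genes. The one named for Cpr65Ec is at chr3L:7090929-7091129, between genes. Cpr64Aa has its stretch at chr3L:4209806-4210006, in an intron of CG43367, and Cpr67Fb at chr3L:10893378-10893578, between genes.
Cpr92A: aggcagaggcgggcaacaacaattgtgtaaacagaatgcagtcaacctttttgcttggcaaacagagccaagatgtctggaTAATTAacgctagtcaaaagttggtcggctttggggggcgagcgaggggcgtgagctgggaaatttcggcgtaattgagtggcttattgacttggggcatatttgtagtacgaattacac
Cpr76Ba: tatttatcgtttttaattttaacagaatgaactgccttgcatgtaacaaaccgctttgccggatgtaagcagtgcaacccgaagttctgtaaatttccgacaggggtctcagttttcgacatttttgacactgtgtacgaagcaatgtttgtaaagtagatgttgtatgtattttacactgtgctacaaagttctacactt
Cpr65Ec: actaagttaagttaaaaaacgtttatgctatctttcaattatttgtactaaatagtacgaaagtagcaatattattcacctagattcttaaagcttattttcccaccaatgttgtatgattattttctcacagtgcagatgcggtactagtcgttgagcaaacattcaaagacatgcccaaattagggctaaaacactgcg
Cpr64Aa: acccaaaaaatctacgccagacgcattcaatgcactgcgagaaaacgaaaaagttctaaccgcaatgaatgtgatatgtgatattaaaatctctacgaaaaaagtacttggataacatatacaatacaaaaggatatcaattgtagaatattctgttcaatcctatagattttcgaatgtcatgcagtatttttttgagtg
Cpr67Fb: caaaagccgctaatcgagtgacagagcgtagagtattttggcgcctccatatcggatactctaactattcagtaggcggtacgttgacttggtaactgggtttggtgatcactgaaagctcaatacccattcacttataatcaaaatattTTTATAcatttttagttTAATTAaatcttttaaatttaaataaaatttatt

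The Cpr92A stretch holds 1 TAATTA, the Cpr67Fb stretch holds 1 TAATTA and 1 TATAAA read on the minus strand as TTTATA, and the other 3 of these 5 hold none of the 8 words. In base composition the Cpr92A stretch was 47.8% G and C, and the other 4 of the 5 lay between 32.3% and 37.3%. The median of all 3974 IDR summits over the same length was 34.3%.

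The strongest summit in a cuticle gene window belonged to Cpr76Ba, the first gene of an array of 4, Cpr76Ba to Cpr76Bd. Cpr76Ba lies on the minus strand at 19517552 to 19518332 of arm 3L, and the peak at 19516523 to 19516946 lies beyond its 3′ end. The summit, at 19516735, was 1597 bp downstream of the Cpr76Ba TSS. Its signal was 197 in the pooled list, rank 920, with 116 in replicate 1 (rank 506) and 84.9 in replicate 3 (rank 1495). The replicate summits lay 6 and 20 bp from the pooled one. Both replicates thus placed this peak well inside their own 3974 strongest entries. Signal values are not on 1 scale across lists, so replicates are compared here by rank.

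Cpr31A, a single gene at 10054213 to 10055935 of arm 2L on the plus strand, had the second strongest summit, at 10057457. Its signal was 171 in the pooled list, rank 1215, with 68.5 in replicate 1 (rank 1472) and 106 in replicate 3 (rank 1003). That summit lay 3244 bp from the Cpr31A TSS and 1522 bp beyond the end of the gene, in an intron of Pen, 557 bp downstream of the Pen TSS. Pen encodes an importin alpha, a nuclear import adaptor, so the nearest start site was not that of the cuticle gene.

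Cpr73D, at 16939100 to 16957689 of arm 3L on the minus strand, is the longest of the 122 genes at 18590 bp, and it alone had an IDR summit inside its gene body. Signal at this summit was 121 in the pooled list, rank 2188, with 59.0 in replicate 1 (rank 1943) and 65.6 in replicate 3 (rank 2340). The summit, at 16956919, lay in an intron of both Cpr73D and Ogdh, 770 bp downstream of the outermost Cpr73D TSS. It was nearer to a TSS of Ogdh, 520 bp upstream of it. Ogdh encodes a subunit of the oxoglutarate dehydrogenase complex of the citric acid cycle. As with Cpr31A, the nearest start site was that of a neighbour.

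Cpr64Aa and Cpr64Ab, neighbours on the minus strand of arm 3L, shared the summit at 4209906. It lay 728 bp upstream of the Cpr64Aa TSS and 1634 bp downstream of the Cpr64Ab TSS. The signal was 87.7 in the pooled list, rank 3549, with 30.01 in replicate 1 (rank 5710) and 57.4 in replicate 3 (rank 2853). This peak was therefore outside the 3974 strongest entries of replicate 1 and inside those of replicate 3. The opposite held for Cpr67Fa2 and Cpr67Fb, neighbours on the plus strand of arm 3L that shared the summit at 10893478, 695 bp upstream of the Cpr67Fb TSS and 1764 bp downstream of that of Cpr67Fa2. There the signal was 83.9 in the pooled list, rank 3785, with 62.7 in replicate 1 (rank 1749) and 28.8 in replicate 3 (rank 7498). The replicate 3 summit lay 256 bp away, and a second pooled entry with a signal of 74.9 (rank 4460) stood beside the IDR peak.

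Beyond the windows, the strongest summit whose nearest TSS was that of a cuticle gene was assigned to Cpr92A. It lay 13933 bp downstream of the Cpr92A TSS inside Dys, and its signal was 233 in the pooled list, rank 629, with 154 in replicate 1 (rank 257) and 84.2 in replicate 3 (rank 1521). Cpr65Ec had a summit 2175 bp upstream of its TSS, just outside the 2 kb limit. Its signal was 98.9 in the pooled list, rank 2985, with 38.9 in replicate 1 (rank 3836) and 56.4 in replicate 3 (rank 2931). The third was Cpr51A, with a summit 3086 bp upstream, a signal of 81.5 and rank 3948, against rank 3324 in replicate 1 and rank 5227 in replicate 3. By distance from the gene body, the outermost gene inside the limit was Cpr31A at 1522 bp. The nearest ones outside it were Cpr64Ac at 2058 bp, Cpr66Cb at 2101 bp, Cpr47Eg at 2144 bp and Cpr65Ec at 2175 bp. Windows of these 4 were touched by a whole peak but held no summit, and the peak beside Cpr66Cb lay 89 bp from the TSS of CG7083.

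**Figure D1:**
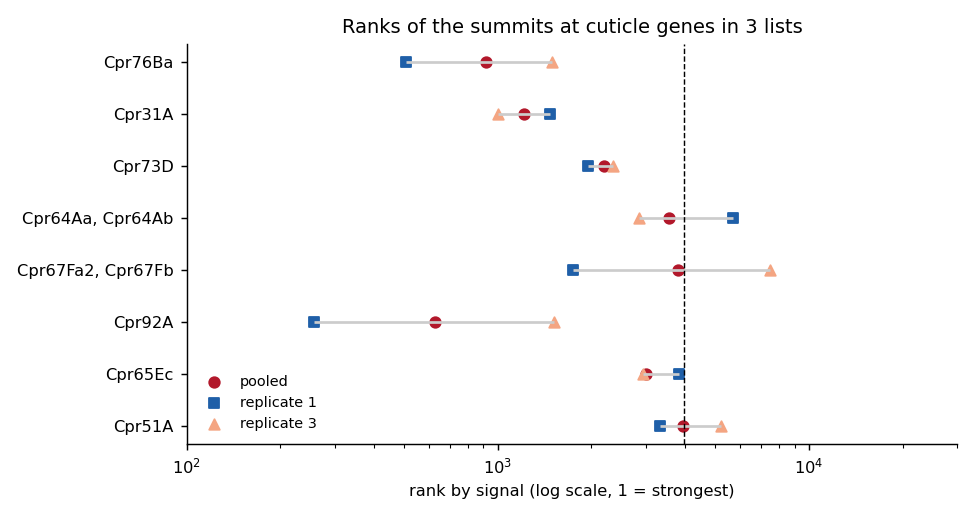
Rank by signal (x axis, log scale, 1 is the strongest) of the 8 IDR summits in a cuticle gene window or nearest to a cuticle gene TSS, in the pooled list (circles), replicate 1 (squares) and replicate 3 (triangles); the top 5 rows lie in windows, the lower 3 outside, and the dashed line marks rank 3974, the size of the IDR set. The peaks of Cpr92A, Cpr76Ba, Cpr31A, Cpr73D and Cpr65Ec were left of the line in all 3 lists, while those of Cpr64Aa, Cpr67Fb and Cpr51A crossed it in 1 replicate.

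The share of occupied cuticle protein genes was set against that of other genes under the same rule. Among all 13945 protein-coding genes 31.2% were occupied. Cuticle genes are short, with a median of 966.5 bp and a range of 413 to 18590 bp, against a median of 2166 bp for all protein-coding genes, so they were also set beside the 6520 protein-coding genes with a window of at most 6 kb, called short-window genes, whose median was 1130 bp. Of these short-window genes 21.3% were occupied. Among the 103 cuticle genes with a short window 6 were, or 5.83%. The interval of the cuticle genes, with its upper end at 11.5%, thus lay below both backgrounds. Neighbouring cuticle genes share windows, so genes are not independent units and the interval covers counting error only.

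No cuticle gene had an IDR summit within 500 bp of any of its TSSs, 0 of 122, for which the upper end of the exact interval is 2.98%. The same rule counted 11.6% of short-window genes and 17.3% of all protein-coding genes. Within 5 kb of a TSS 19 of the 122 cuticle genes had a summit, 15.6%, against 32.0% of short-window genes and 37.8% of all. Ownership of the nearest TSS fell to 6 cuticle genes, 4.92%, against 11.1% of short-window genes and 19.4% of all. Of the 5 summits in cuticle windows 0 lay within 500 bp of a protein-coding TSS of any gene and 4 lay within 1 kb, while 46.8% and 56.0% of all IDR summits did. With 5 summits the exact interval of the first share runs up to 52.2%, which includes the 46.8%. Of the 72 pooled entries in cuticle windows, described below, 31.9% lay within 500 bp of a TSS and 65.3% within 1 kb, against 27.9% and 38.2% of all pooled entries. The window rule keeps only sites close to short genes, while all pooled entries and all IDR summits are not limited in this way. These shares are thus not like for like, and entries in short-window genes were not counted by distance.

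**Figure D2:**
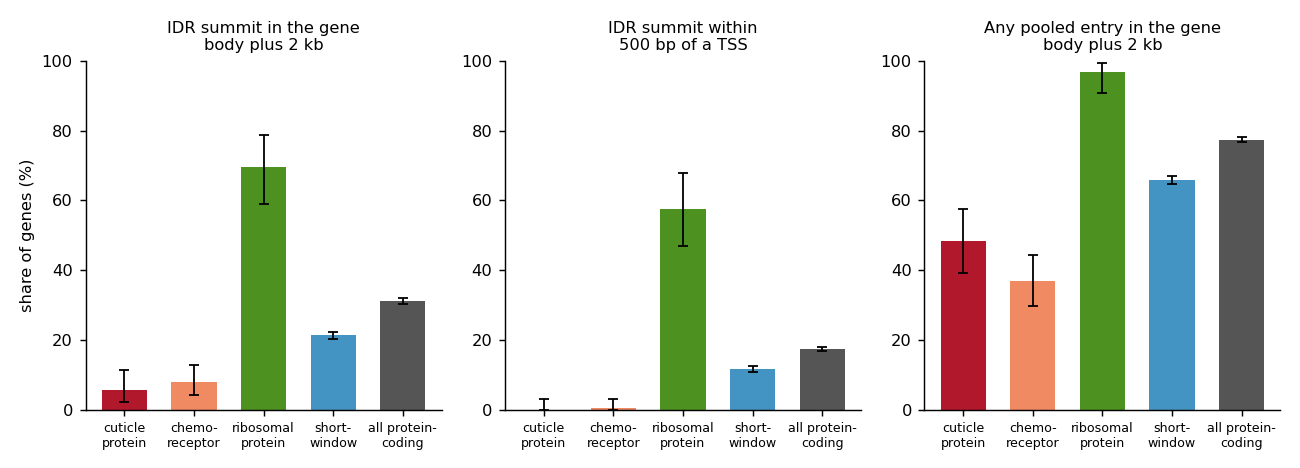
Share of genes (y axis, %) among cuticle protein, chemoreceptor, cytosolic ribosomal protein, short-window and all protein-coding genes with an IDR summit in the gene body plus 2 kb (left), with an IDR summit within 500 bp of a TSS (middle) and with any pooled entry in the gene body plus 2 kb (right); bars are shares and lines exact 95% binomial intervals. Cuticle genes stood at 5.74%, 0% and 48.4%, below the short-window genes at 21.3%, 11.6% and 65.8% in each panel.

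Other families of mostly short genes gave the range. The chemoreceptor genes (Or, Gr and Ir), which serve smell and taste mainly in later stages, were occupied in 14 of 179 cases, 7.82% (4.34 to 12.8%), and 1 of them, 0.56%, had a summit within 500 bp of a TSS. The cytosolic ribosomal protein genes, which all growing cells express, were occupied in 64 of 92 cases, 69.6% (59.1 to 78.7%), and 53 of them, 57.6%, had a summit at a promoter. The intervals of cuticle and chemoreceptor genes overlapped, and that of the ribosomal protein genes overlapped neither. No test of these differences was run.

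The distance to the nearest summit needs no window. From the canonical TSS to the nearest IDR summit the cuticle genes had a median of 18436 bp, with quartiles of 9844 and 28990 bp and a range of 695 to 72960 bp. The median was 24050 bp for chemoreceptor genes, 151.5 bp for ribosomal protein genes, 10584 bp for short-window genes and 8908 bp for all protein-coding genes. Only Cpr64Aa and Cpr67Fb lay within 1 kb, 18 of the 122 lay within 5 kb (14.8%) and 31 within 10 kb (25.4%). Within 1 kb these were 1.64% of cuticle genes, against 13.1% of short-window genes.

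**Figure D3:**
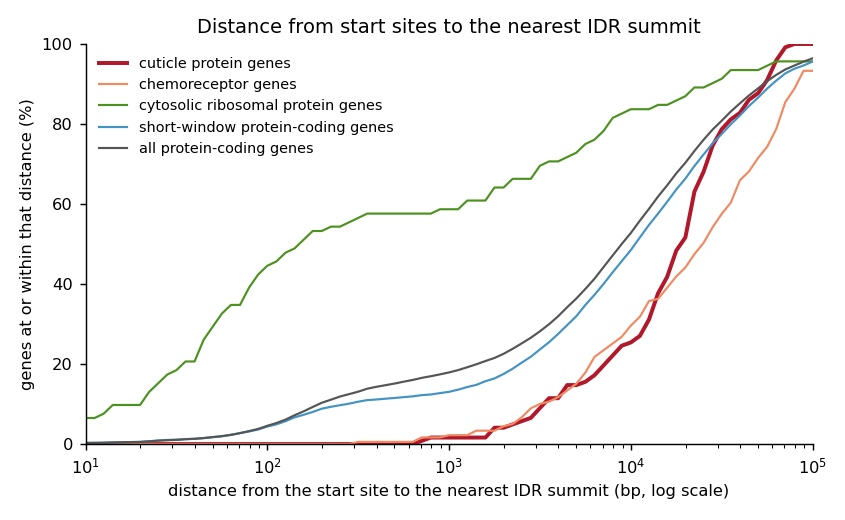
Cumulative share of genes (y axis, %) whose canonical start site lies at or within a distance (x axis, bp, log scale) of the nearest IDR summit, for cuticle protein genes (thick line) and 4 other gene sets. The cuticle curve leaves 0 only at 695 bp and reaches 50% at 18436 bp, right of the short-window curve at 10584 bp.

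Below the IDR set, the authors' pooled list holds 30000 entries of peaks and background together, down to a signal of 21.0, so an entry there is not a called peak. Of the 122 cuticle genes 59 had 1 or more pooled entries in their window, 48.4% (39.2 to 57.6%), against 65.8% of short-window genes and 77.4% of all. Replicate 1 alone gave 56 genes, 45.9%, against 66.0% of short-window genes. Replicate 3 alone gave 63, 51.6%, against 66.2%. In all 3 lists at once 36 cuticle genes had an entry, a count for which no background share was computed. In none of the 3 lists had 39 an entry, 32.0%, against 23.3% of short-window genes and 14.4% of all. Where an entry was present, the strongest per gene had a median signal of 32.2 in cuticle genes and 51.7 in short-window genes.

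In proportion, cuticle genes lay furthest below short-window genes among the strongest entries. Over the 0.516 Mb that the cuticle windows cover, the pooled list had 9.69 entries per Mb among ranks 1 to 3974, the IDR set, against 48.1 per Mb in short-window genes. Among ranks 3975 to 10000 the densities were 21.3 and 60.7 per Mb, among ranks 10001 to 20000 they were 52.3 and 88.1 per Mb, and among ranks 20001 to 30000 they were 56.2 and 85.3 per Mb, cuticle genes first. Ranks 1 to 3974 held 5 cuticle entries and ranks 3975 to 10000 held 11, and no interval was computed for the densities. Chemoreceptor genes were also below short-window genes in every block, at 15.8, 17.8, 32.6 and 49.3 per Mb from strongest to weakest. Of the 72 pooled entries in cuticle windows 5, or 6.94%, belonged to the IDR set, against 17.1% of the entries in short-window genes. A cuticle gene owned the nearest TSS for 45 of the 72.

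By family, 7 of 70 Cpr genes and none of the others had an IDR summit, against 21.3% of short-window genes. The pooled list had an entry for 40 of the 70 Cpr genes, 3 of the 15 Lcp genes, 3 of the 7 Ccp genes, 0 of the 2 Acp genes, 1 of the 3 Edg genes and 12 of the 25 Twdl genes. Among all cuticle genes the share with a pooled entry was 48.4%, and among short-window genes 65.8%. Groups as small as Acp and Edg allow no reading of an order, and the difference between families was not tested. Both Acp windows and those of several Lcp genes hold repeated sequence, described below, which can hide entries. Members with no pooled entry included Lcp1 and Lcp2, larval cuticle proteins; Acp1 and Acp65Aa, adult cuticle proteins; and Edg78E and Edg91, whose names stand for ecdysone-dependent genes. Ccp84Aa, Ccp84Ab, Cpr11A, Cpr12A, TwdlC and TwdlD had none either. TwdlD is known from alleles that change larval and pupal body shape.

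**Figure D4:**
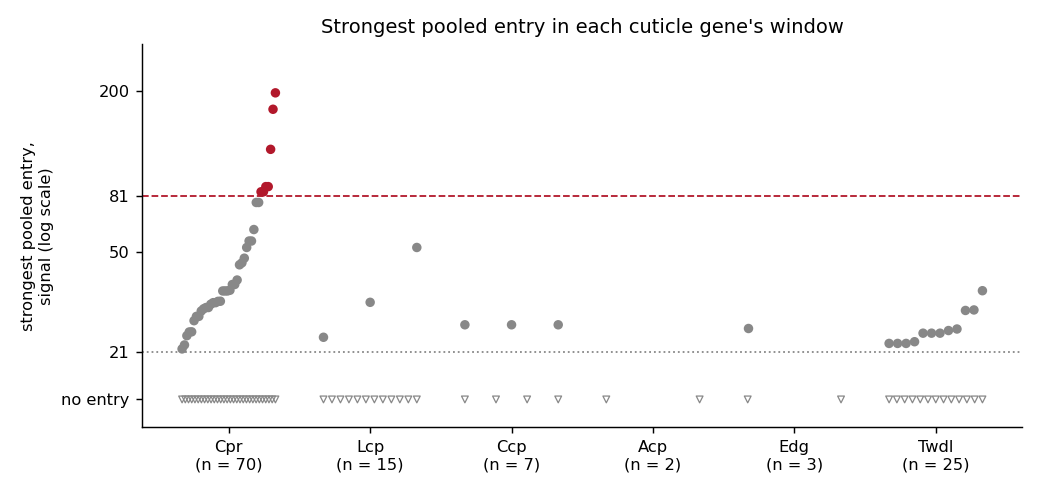
Signal of the strongest pooled entry in each cuticle gene's window (y axis, log scale) by family, one point per gene, with IDR-occupied genes in red and genes without an entry as open triangles at the bottom; the dashed line is the lowest IDR signal of 81.1 and the dotted line the lowest pooled signal of 21.0. Points above the dashed line occur among the Cpr genes, and 63 of 122 genes have no entry.

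The strongest of the cuticle genes without an IDR summit was Cpr65Az, at 6160814 to 6161589 of arm 3L, together with its neighbour Cpr65Ay. They shared a pooled entry 681 bp upstream of the Cpr65Az TSS with a signal of 76.5, rank 4322. Replicate values in this paragraph are those of the strongest entry anywhere in a gene's window. They were not matched in position to the pooled entry. Replicate 1 had 29.95 in both windows (rank 5732). Replicate 3 had 40.2 in the Cpr65Az window and 40.7 in that of Cpr65Ay, so the 40.7 entry lay outside the Cpr65Az window. Next came Cpr100A on arm 3R with a pooled entry of 60.6 (rank 6003) 1937 bp upstream of its TSS. Its window had 25.5 in replicate 1 and 32.0 in replicate 3. Cpr65Av and Cpr65Aw shared a pooled entry of 54.9 (rank 6894) 379 bp upstream of the Cpr65Av TSS. Their windows had 25.8 in replicate 1 and 28.3 in replicate 3. Lcp65Ag3 and its neighbour Cpr65Au shared a pooled entry of 51.9 (rank 7447), but it was nearest to l(3)mbn, 785 bp upstream of that gene. Their windows had 28.1 in replicate 1 and 26.9 in replicate 3. All 7 genes thus had an entry in their window in both replicates, and their strongest pooled entry lay below the IDR set.

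Along the chromosomes the 122 genes fell into 47 groups when genes within 20 kb of each other were joined, 17 groups of 2 or more with 92 genes and 30 single genes. An IDR summit was present in 5 of the 47 groups and a pooled entry in 29. The largest array, Lcp65Ag3 to Cpr65Az on arm 3L, has 18 genes and 33.9 kb of window. It had no IDR summit, 7 pooled entries, 8 in replicate 1 and 10 in replicate 3, the strongest of them the 76.5 upstream of Cpr65Az. Pooled entries stood near both ends and in the middle, with long runs of genes between them that had none. The run from Lcp65Ac to Acp65Aa includes windows with much repeated sequence, described below.

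The Tweedle array TwdlM to TwdlD on arm 3R, with 12 genes and 25.9 kb of window, had 2 pooled entries, the stronger with a signal of 24.8, and 1 entry in each replicate. Edg84A to Ccp84Aa on the same arm, with 8 genes and 22.8 kb, likewise had 2 pooled entries, the stronger at 26.6. Cpr49Aa to Cpr49Ah, with 8 genes and 31.3 kb, had 1 pooled entry at 30.9, and Cpr47Ea to Cpr47Eg, with 7 genes and 29.3 kb, had 7 entries, the strongest at 45.5. The array of Lcp1 to Lcp4, the major larval cuticle proteins, with 12.4 kb of window, had no entry in any of the 3 lists. The 3 occupied arrays had 3 or 4 genes each. Cpr76Ba to Cpr76Bd had 2 pooled entries in 23.3 kb, Cpr67Fa1 to Cpr67Fb had 5 in 8.70 kb, and Cpr64Aa to Cpr64Ad had 1 in 12.6 kb, each with 1 IDR summit. By arm, 6 of 47 cuticle genes on 3L and 1 of 7 on 2L were occupied, against 0 of 33 on 3R, 0 of 27 on 2R and 0 of 8 on X, with none on arm 4. Among all protein-coding genes the occupied share was 33.7% on 3L, 30.9% on 2L, 32.5% on 3R, 29.3% on 2R and 29.6% on X. Some neighbours on 3L shared a summit, so the genes there are not independent, and a difference between arms was not tested.

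**Figure D5:**
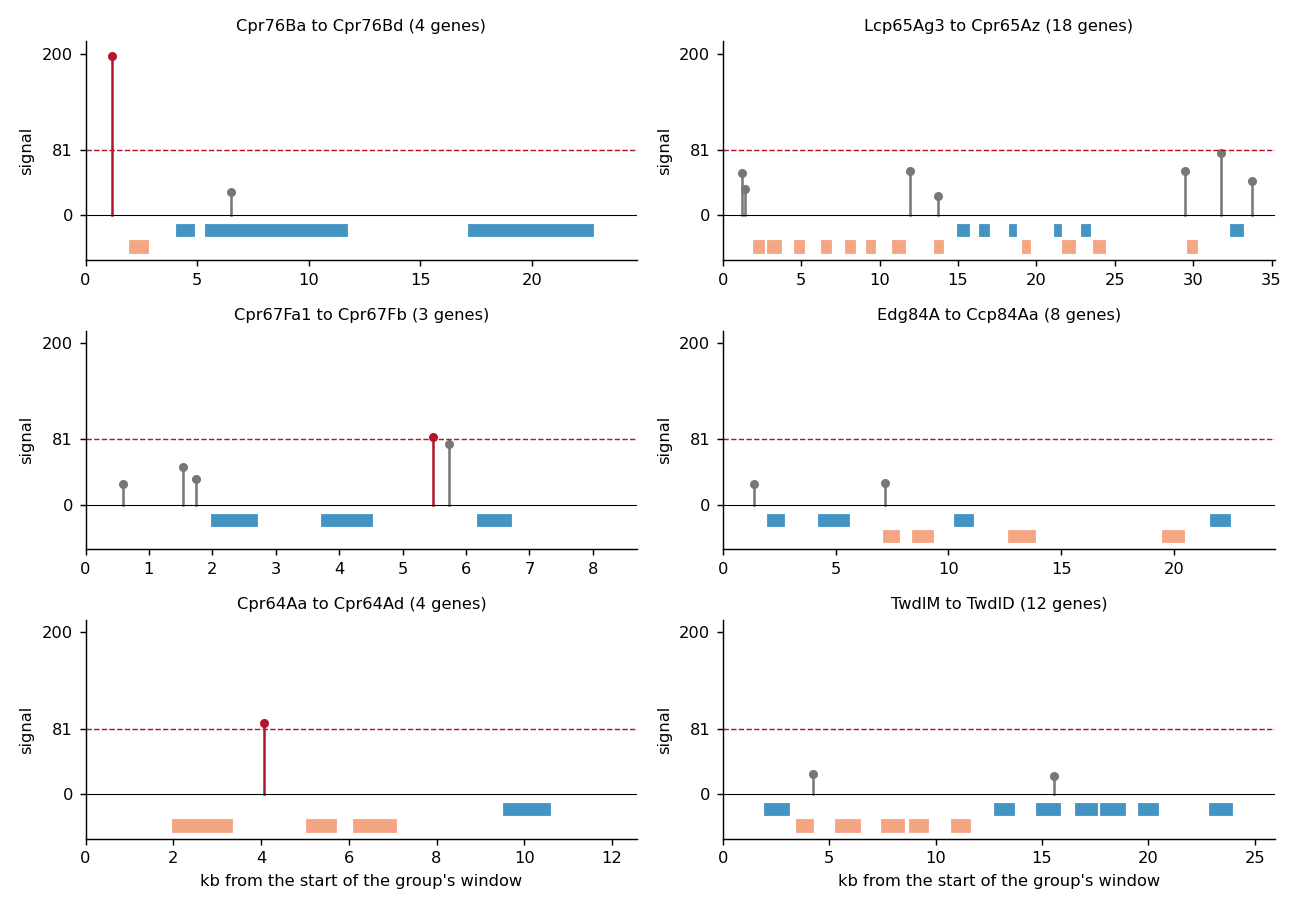
Maps of 6 cuticle gene arrays (x axis, kb from the start of the array's window) with cuticle genes as boxes, blue for the plus strand and orange for the minus strand, and the signal of each pooled entry as a stem (y axis); red stems are IDR peaks and the dashed line is the lowest IDR signal of 81.1. The 3 arrays on the left have 1 red stem each, highest at Cpr76Ba with 197, and the 3 larger arrays on the right, with 18, 8 and 12 genes, have grey stems at or below 76.5.

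Repeated sequence can hide peaks where reads fit several places, so the share of 50 bp stretches that occur once on the 6 arms was computed for each window. Its median was 100% in cuticle genes and 100% in short-window genes, and the means were 95.4% and 95.7%. In 16 of the 122 cuticle genes the share was below 90%, lowest in Cpr65Ax1 at 38.6% and Lcp65Ab1 at 41.5%, each 1 of a duplicated pair in the 65A array. Acp1, at 45.8%, and Acp65Aa, at 78.3%, were also below 90%. So were Lcp65Ab2, Cpr65Ax2, Lcp65Aa, Lcp65Ac and Lcp65Ag1 of the 65A array. Entries could be hidden in such windows, which was not tested. Cpr73D, at 59.8%, was the 1 occupied gene among these 16. With both sets limited to genes at 90% or more, 6 of 106 cuticle genes were occupied, 5.66% (2.11 to 11.9%), against 22.6% of 6023 short-window genes.

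The promoters of the cuticle genes are shown next for the 7 occupied genes, because the start sites of this family often carry 1 core promoter word. Each line gives the 50 bp before the canonical TSS on the gene's own strand, read 5′ to 3′ in dm6, with TATAAA in capitals. For Cpr73D the canonical TSS is not its outermost one. The stretches are Cpr31A at chr2L:10054163-10054212 (plus strand), Cpr64Aa at chr3L:4209179-4209228 (minus), Cpr64Ab at chr3L:4211541-4211590 (minus), Cpr67Fa2 at chr3L:10891664-10891713 (plus), Cpr67Fb at chr3L:10894123-10894172 (plus), Cpr73D at chr3L:16942950-16942999 (minus) and Cpr76Ba at chr3L:19518333-19518382 (minus).
Cpr31A: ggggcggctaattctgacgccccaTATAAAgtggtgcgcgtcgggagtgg
Cpr64Aa: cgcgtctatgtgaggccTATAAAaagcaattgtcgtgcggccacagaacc
Cpr64Ab: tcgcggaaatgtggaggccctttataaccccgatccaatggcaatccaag
Cpr67Fa2: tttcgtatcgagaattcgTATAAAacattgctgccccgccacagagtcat
Cpr67Fb: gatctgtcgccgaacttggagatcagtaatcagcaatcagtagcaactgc
Cpr73D: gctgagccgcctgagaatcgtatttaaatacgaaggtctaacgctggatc
Cpr76Ba: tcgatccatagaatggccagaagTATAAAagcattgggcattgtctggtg

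TATAAA is the core of the TATA box, which the TATA-binding protein recognises just before many regulated start sites. It began 26 bp before the start in Cpr31A, 33 bp in Cpr64Aa, 32 bp in Cpr67Fa2 and 27 bp in Cpr76Ba. Cpr64Ab, Cpr67Fb and Cpr73D had no TATAAA in this range. Of all 122 cuticle genes 73, or 59.8%, had TATAAA on the sense strand beginning 40 to 20 bp before the start. The share was 2.79% in chemoreceptor genes, 1.09% in ribosomal protein genes and 7.92% in all protein-coding genes. No summit in a cuticle window lay at these promoters, since none was within 500 bp of a TSS.

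Occupancy was also set out by this word, a split chosen after the data had been seen. Among cuticle genes with TATAAA in that range 4 of 73 were occupied, 5.48% (1.51 to 13.4%), and among those without it 3 of 49, 6.12% (1.28 to 16.9%). The 777 short-window genes with the word were occupied in 10.2% of cases, and the 5743 without it in 22.9%. The intervals of both cuticle classes overlapped, and the interval of the cuticle genes with the word included the short-window value of 10.2%. That of the cuticle genes without it lay below the short-window value of 22.9%. Whether this promoter class bears on the low occupancy of the family was not tested.

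The 8 words were searched on both strands of the 300 bp from 250 bp before to 50 bp after each canonical start. TATAAA was present in 95 of 122 cuticle promoters, 77.9%, against 45.3% of all protein-coding promoters. TATCGATA, the core of the DRE element of many housekeeping promoters, was in 1 cuticle promoter, 0.82%, against 8.94% of all promoters and 30.4% of ribosomal protein promoters. GGTCACACT, a word of housekeeping promoters, was in 0 of 122 against 5.87% of all. TGATAC, a word bound by sine oculis family proteins, was in 11 cuticle promoters, 9.02%, against 7.87% of all promoters. TAATTA, a word of many homeodomain proteins, was in 20, 16.4%, against 20.04%. GAGAG, bound by the GAGA factor, was in 41, 33.6%, against 30.2%. AAGGTCA, the site of single-bound nuclear receptors such as Ftz-F1, was in 1, 0.82%, against 2.09%, and AACCGGTT, a word of Grainy head, in 0 against 0.76%.

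Within 100 bp of the 5 summits in cuticle windows, TATAAA occurred at 2, TAATTA at 1 and the other 6 words at 0. Over all IDR summits TATAAA occurred at 37.7%, TAATTA at 18.4% and TGATAC at 6.49%. With 5 summits the absence of TGATAC says only that these letters are not in these windows. The median share of G and C was 44.7% in cuticle promoters and 38.0% in all promoters, and it was 43.0% over cuticle windows and 43.8% over short-window ones.

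Other genes of cuticle building were counted under the same rule, by which 31.2% of all protein-coding genes were occupied. Median windows were 6427 bp for the other cuticle proteins, 9297 bp for the chitin list and 9603 bp for the tanning list. No background was matched to these windows, so the 31.2% is not like for like. Of 6 cuticle proteins outside the symbol rule, Pcp alone was occupied. Its peak, with a signal of 84.4, lay 224 bp upstream of the TSS of Gart, the purine synthesis gene in which Pcp is nested, and resilin, the elastic cuticle protein, and Vajk1 were among the 5 with none. Where a replicate was left out, the other replicate's own list was used, cut to as many strongest entries as the IDR set holds. No IDR step was applied to it. Without replicate 1, and by the nearest TSS, the list of other cuticle proteins had 0 occupied genes. Of 22 genes of chitin synthesis and assembly 2 were occupied, the chitinase gene Cht7 with a signal of 131 (rank 1925), 165 bp upstream of its TSS, and nst, which makes precursors of chitin, with 96.4 (rank 3099). The chitin synthases kkv and Chs2 had none. The chitin list had 4 occupied genes without replicate 3 and 3 without replicate 1. Of 11 tanning and pigmentation genes Ddc, the dopa decarboxylase, had a summit 932 bp upstream with a signal of 81.3 (rank 3960), while ple, the tyrosine hydroxylase, and amd had none. Without replicate 1 the tanning list had 0 occupied genes.

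Of 10 zona pellucida domain proteins of the apical matrix 4 were occupied, but their median window was 19927 bp. The strongest were cyr with 152, at the TSS of CG10958, and tyn with 147, 243 bp upstream of its own TSS, then dpy with 131 and nyo with 92.4, and pio and mey had none. The strongest dpy summit lay in a dpy intron, but its nearest TSS was that of HP6, 5303 bp away. That of nyo was nearest to gammaCOP and lay 23856 bp from the nyo TSS. By the nearest TSS 3 of the 10 genes were occupied. Transcription factors of cuticle and ecdysone timing were occupied in 14 of 17 cases. Hr3 had a signal of 579 (rank 69), Hr4 463 (rank 123), Eip75B 351 (rank 252) and rib 300 (rank 375), while Kr-h1 and crol had none. Their median window was 37354 bp, far longer than those of the cuticle protein genes. The share of 82.4% is thus not comparable with that of the short genes or with the 31.2% of all protein-coding genes.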

How the data were processed

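The values were lists of ChIP-seq peaks on dm6 as deposited: 1 list of peaks and background per replicate (30000 entries in replicate 1 and 28237 in replicate 3), 1 pooled list of 30000, and the IDR set. The authors gave each peak a signal value and a −log10 q value, the signal being used here to rank peaks within a list. The aligner, the peak caller, their versions, the IDR threshold and the basis of the signal were not given in the sources used here. Read numbers were not analysed here, so the depth of each library is unknown, and precision is set by the number of peaks and genes. Lists on dm3 were not used here.

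Genes were taken from Ensembl 115 (FlyBase 6.54) and sequence from the Release 6 genome in the RefSeq copy, the same build as dm6. All peak ends lay within the arm lengths. Coordinates count from 1. The summit is the start plus the offset. TSS counts used every transcript of protein-coding genes, and promoters and distances to the nearest summit used the canonical one. An overlap needed 1 bp. The 95% intervals, by the Clopper-Pearson method, are exact for counting error and cover nothing else. No test was run.

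Members and lists were chosen with earlier results of these data known. Named genes were every occupied member, the owners of the nearest TSS outside windows, the 6 strongest without an IDR summit (Cpr65Au, which tied for the last place, was added), the first 2 of each family in alphabetical order with no pooled entry, and up to 4 occupied and 2 unoccupied genes of each of the 5 other lists. Cpr64Ac, Cpr66Cb, Cpr47Eg, Cpr65Ax1, Lcp65Ab1, Lcp65Ab2, Cpr65Ax2, Lcp65Aa, Lcp65Ac and Lcp65Ag1 were named after their values were seen. The split by TATAAA position, the densities by rank and the repeated-sequence share were added after the data had been seen. The counting was tested on simulated data. Python 3.11.15 with pandas 2.3.3, numpy 2.4.6, scipy 1.17.1 and matplotlib 3.10.9 was used.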

Additional observations from a re-analysis of the deposited data

How the results depend on the processing

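The count of occupied cuticle genes, 7, depended on the peak set and on the rule. It was 2 with the 1987 strongest IDR peaks, 14 with the 7948 strongest pooled entries, 59 with every pooled entry, 1 with the gene body alone, 0 within 500 bp of a TSS, 19 within 5 kb of a TSS and 11 where any overlap of the whole peak counted. It was 6 by the nearest TSS. The 5 summits in windows became 2 among those 1987, 1 in the gene body alone and 8 by whole-peak overlap. The 6 owners of the nearest TSS became 2 among those 1987 and 5 with TSSs of every biotype. The promoter count of 0 stayed 0 at 250 bp and was 4 at 1000 bp. Under each of these gene rules and peak sets the cuticle share was below that of short-window genes. With the gene body alone this rested on 1 cuticle gene, and its interval, 0.02 to 4.48%, included the short-window share of 2.22%. Leaving out a replicate meant using the other replicate's own list, cut to as many strongest entries as the IDR set holds. No IDR step was applied to such a list, so these counts are not the IDR analysis repeated. Leaving out each replicate in turn gave 5 and 5 occupied genes, 4 to 5 summits and 4 to 6 owners. The 5 genes were 4.10% each time, against 21.2% of short-window genes each time. There were 0 to 1 promoter summits (1 without replicate 3). With the other replicate's whole list, 56 to 63 genes had an entry, 45.9% to 51.6%, against 66.0% to 66.2% of short-window genes. The 5 other lists had 15 alternative counts, of which 11 were within 1.5 times. The other 4 were 0 other cuticle proteins (against 1) without replicate 1 and by the nearest TSS, 0 tanning genes (against 1) without replicate 1, and 4 chitin genes (against 2) without replicate 3. Joining genes at 5 kb or 50 kb gave 56 or 46 groups, of which 5 held an IDR summit each time. No paired analysis was possible because there is 1 group. With depth unknown, an unoccupied gene is one without a summit in these lists, not one shown to be unbound.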
